A study of Mus musculus with 8 samples.

Results

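The 10 genes described here serve the melanosome, the organelle in which pigment cells make and carry melanin. Rab27a, Mlph, Myo5a, Mreg, Rab38 and Rab32 were taken as genes of melanosome transport, and Hps1, Hps4, Hps5 and Ap3b1 as genes of organelle biogenesis. They were chosen by gene symbol in the platform annotation, and all 10 were found among the 22180 genes of the value table. Hps1 alone had 2 rows, and the row with the higher mean over the 8 arrays was used (4.22 against 3.35 on the log2 scale).

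Gene expression was measured with mouse gene arrays on cells sorted from dissociated skin, in 3 groups. P21_KO holds 4 arrays of melanocyte stem cells from 21-day-old mice of genotype B-raf fl/fl and C-raf fl/fl, alleles that Cre can delete. P21_WT holds 2 arrays of melanocyte stem cells from 21-day-old mice of genotype B-raf +/+ and C-raf +/+. P4_WT holds 2 arrays of melanoblasts, the pigment cell precursors, from 4-day-old mice of that same wild-type genotype. Mice of every group also carried the TyrCre/° and Z/EG transgenes on a mixed C57Bl/6 and 129/Sv background, so the wild-type cells held Cre as well. Cre was driven by the tyrosinase promoter and Z/EG turned its activity into green fluorescence. The sort took fluorescent cells without surface p75 and used no melanosome protein. The labels give P21_KO replicates 2, 3 and 4 one common number without saying what it marks, and these arrays may therefore share a source. The study asked how melanocyte stem cells differ from melanoblasts, and which genes of the stem cells differ when B-raf and C-raf are floxed.

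Melanosomes arise from endosomes, and several protein complexes sort their cargo. BLOC-3, made of the Hps1 and Hps4 proteins, activates the small GTPases Rab32 and Rab38, which work with BLOC-2 and the adaptor AP-3 to bring melanin enzymes to the maturing organelle. Rab27a on the mature melanosome binds melanophilin (Mlph), which in turn binds the actin motor myosin Va (Myo5a), and this chain holds melanosomes at the cell periphery. Mouse coat colour mutants are known for many of these genes, among them ashen for Rab27a, leaden for Mlph, dilute for Myo5a, chocolate for Rab38, pale ear for Hps1, light ear for Hps4 and pearl for Ap3b1. Loss of HPS genes or of AP3B1 in humans causes Hermansky-Pudlak syndrome, with pale skin and bleeding.

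Promoter sequences are given for the 4 members that hold the letters CACGTG, the E-box bound by MITF and its relatives, because MITF is the main transcription factor of pigment cells and the members are set side by side below. The sequences come from RefSeq on build GRCm38.p6, whose promoter table held 9 of the 10 members. Each line runs 5′ to 3′ on the strand of the gene from 250 bases before a transcription start to the 10 bases from it on, and capitals mark CACGTG and, in Hps1, also CATGTG.
Mlph, chr1:90914850-90915109, plus strand: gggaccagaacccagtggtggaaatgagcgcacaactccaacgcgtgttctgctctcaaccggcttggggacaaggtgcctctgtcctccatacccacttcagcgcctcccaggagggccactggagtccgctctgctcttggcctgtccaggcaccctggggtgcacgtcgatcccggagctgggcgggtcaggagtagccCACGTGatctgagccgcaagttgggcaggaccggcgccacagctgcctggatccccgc
Hps5, chr7:46795872-46796131, minus strand: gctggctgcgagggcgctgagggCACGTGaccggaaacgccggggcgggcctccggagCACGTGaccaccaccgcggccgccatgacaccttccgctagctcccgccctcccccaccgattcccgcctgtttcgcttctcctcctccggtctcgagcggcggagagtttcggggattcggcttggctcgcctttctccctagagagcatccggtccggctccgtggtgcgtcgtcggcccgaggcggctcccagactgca
Rab27a, chr9:73063898-73064157, plus strand: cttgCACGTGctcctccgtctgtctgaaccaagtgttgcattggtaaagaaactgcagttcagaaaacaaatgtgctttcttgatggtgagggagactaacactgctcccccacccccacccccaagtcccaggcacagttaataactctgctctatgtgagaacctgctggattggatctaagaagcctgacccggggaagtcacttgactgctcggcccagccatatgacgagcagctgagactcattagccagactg
Hps1, chr19:42779969-42780228, minus strand: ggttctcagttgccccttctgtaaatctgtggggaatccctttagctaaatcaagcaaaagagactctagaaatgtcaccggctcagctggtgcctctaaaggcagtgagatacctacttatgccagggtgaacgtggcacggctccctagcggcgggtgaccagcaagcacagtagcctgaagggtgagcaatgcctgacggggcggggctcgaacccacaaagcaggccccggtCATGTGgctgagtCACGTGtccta

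The motif begins 48 bases before the start in Mlph, 227 and 192 bases before it in Hps5, 246 bases before it in Rab27a and 1 base before it in Hps1. CACGTG reads the same on both strands. Over windows of 300 bases it was present for 4 of the 9 members in the table, and for 8.09% of the 27025 genes with a window. Rab27a has a second start without the motif, and so has Hps1. CATGTG, searched on both strands as CATGTG or CACATG, was present in the windows of 1 member, Hps1, and of 15.9% of all genes. These matches describe the letters only.

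The mean of 9 melanocyte lineage markers (Mitf, Sox10, Kit, Dct, Tyr, Tyrp1, Pmel, Mlana and Ednrb) was 6.99 to 8.53 in P21_KO, 8.81 and 9.04 in P21_WT and 9.70 and 9.74 in P4_WT. Markers of other skin cells were read as well, with 6 keratinocyte genes averaging 7.80 in P21_KO, 8.26 in P21_WT and 7.29 in P4_WT. The average of 6 fibroblast genes was 6.58 in P21_KO, 6.79 in P21_WT and 6.94 in P4_WT. For 4 Schwann and glial genes it was 8.65 in P21_KO, 8.44 in P21_WT and 7.08 in P4_WT. Levels of different probes are not comparable, so the purity of the sort was not measured. P4_WT replicate 2 stood apart in other cell types' genes. Its mean was 6.11 for 6 endothelial markers, against 3.34 to 3.83 on all other arrays. It was 5.63 for 8 macrophage and leukocyte markers, against 3.04 to 3.53, and 4.77 for 6 mast cell markers, against 2.16 to 2.44. P21_KO replicate 4 had the lowest lineage mean. Braf read 5.66 to 6.57 in P21_KO, and 5.99 and 7.20 in P21_WT, a difference of -0.34 ± 0.36 (SE; limma adjusted p = 0.944).

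Melanosome transport genes read lower in the 21-day cells, and Rab38 passed the test in the age comparison. All 10 genes read lower in P21_WT than in P4_WT, with a median log2 difference of -0.85, where 49.8% of all genes had a difference below 0 and the median of all genes was 0.00. The 6 transport genes had a median of -1.34 and the 4 biogenesis genes a median of -0.50. Rab38 and Rab32, which also bring enzymes to the maturing organelle, were counted as transport genes, and the medians depend on that choice. Rab27a, Mlph and Myo5a, the chain to the motor, were not called in any comparison. Rab38 was the only member called, as lower, with 0.852% of all genes called lower (1.61% in either direction). A gene was called at a limma p-value under 0.05 after Benjamini-Hochberg adjustment over all genes, and 4 of the 10 had an unadjusted p under 0.05, as had 12.6% of all genes. In 8 of the 10 every P21_WT array lay below every P4_WT array, against 22.1% of all genes.

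Between P21_KO and P21_WT no member was called, and limma called 0% of the genes in either direction. At an unadjusted p under 0.05 there was 1 member, Rab32, against 6.52% of all genes. The difference was negative for 8 of the 10, against 48.6% of all genes, with a median of -0.38. The transport genes had a median of -0.64 and the biogenesis genes a median of -0.10, and the median of all genes was 0.01. Every P21_KO array lay below both P21_WT arrays for Myo5a, Rab38 and Rab32, which makes 3 of 10 members against 7.64% of all genes.

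P21_KO and P4_WT lay furthest apart, in age and genotype together, which cannot be told apart between these groups. This comparison is the sum of the other 2 and shares their arrays. Rab38, Rab32, Mreg and Hps5 fell, which makes 4 members called lower against 4.68% of all genes (7.73% called in either direction). The difference was negative for 9 of the 10, against 47.3% of all genes, and 7 had an unadjusted p under 0.05, against 20.5%. The median was -1.29 over the 10 genes, -2.06 over the transport genes and -0.35 over the biogenesis genes, against 0.02 over all genes. The groups did not overlap for 8 of the 10, all lower, as for 15.5% of all genes. The call count was 2 of 10 without P4_WT replicate 1, 2 of 10 without P4_WT replicate 2, and 1 of 10, Rab38, without both P4_WT replicate 2 and P21_KO replicate 4.

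**Figure D1:**
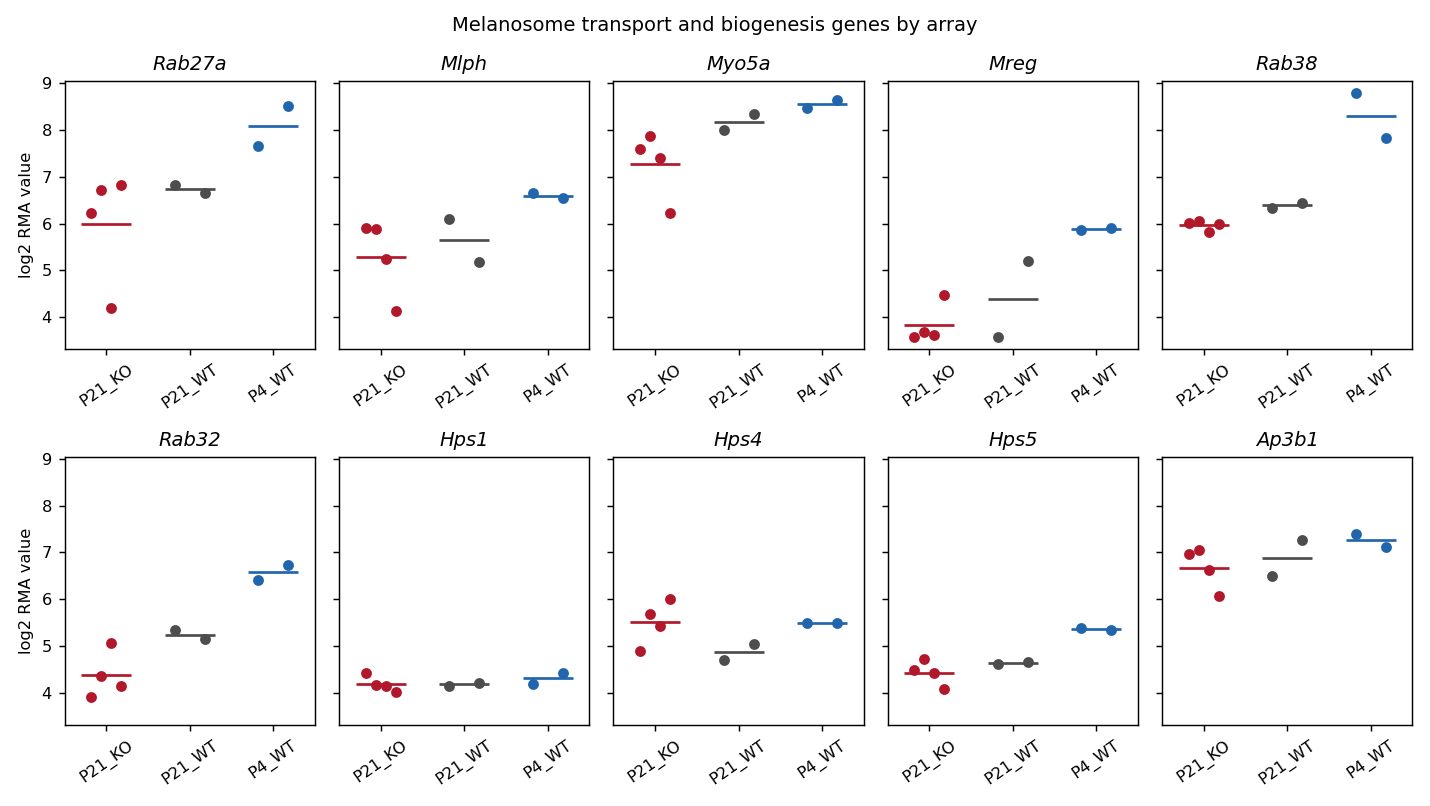
Log2 RMA value (y axis) of each of the 10 genes on every array, by group (x axis), with points for arrays and bars for group means. Rab38 lies between 5.81 and 6.05 in P21_KO, at 6.34 and 6.44 in P21_WT, and at 8.78 and 7.82 in P4_WT, while Hps1 lies between 4.02 and 4.43 on all 8 arrays.

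In every list of array values below, P21_KO is given in order of replicates 1 to 4 and the wild-type groups in order of replicates 1 and 2, on the log2 scale. Differences carry the standard error of the limma fit over all 8 arrays, and group means carry the SD.

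Rab38, a GTPase that brings melanin enzymes to the melanosome, had the smallest p of the 10 in the age comparison. It read 6.02, 6.05, 5.81 and 5.99 in P21_KO, 6.34 and 6.44 in P21_WT, and 8.78 and 7.82 in P4_WT. The 3 groups did not overlap, and both groups at 21 days were tight, with P21_KO at 5.97 ± 0.11 (SD, n = 4) and P21_WT at 6.39 ± 0.07 (SD, n = 2) beside P4_WT at 8.30 ± 0.68 (SD, n = 2). Rab38 fell 3.76-fold in P21_WT relative to P4_WT (log2 -1.91 ± 0.28, limma adjusted p = 0.0181). It fell 5.03-fold in P21_KO relative to P4_WT (log2 -2.33 ± 0.25, limma adjusted p = 0.00144). P21_KO and P21_WT, the neighbours at the low end, differed by -0.42 ± 0.25 (limma adjusted p = 0.864), with a 95% interval of -0.99 to 0.14.

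The age call of Rab38 was lost in 4 of 20 alternative fits. Its limma adjusted p was 0.108 without P21_WT replicate 1, 0.0839 without P21_WT replicate 2 and 0.133 when only wild-type arrays entered, while the difference stayed between -1.96 and -1.86. The fourth was the replicate block, a fit of replicates 1 and 2 of each group with a term for the replicate number. It left out P21_KO replicates 3 and 4 (limma adjusted p = 0.102). The call against P21_KO held in every alternative fit run, with the largest adjusted p at 0.0427. The mean of 6 hair shaft markers was 2.85 and 2.84 in P21_WT, and 7.03 and 4.90 in P4_WT. With 2 P4_WT arrays, their order cannot link these markers to Rab38, and no link was tested. Without P4_WT replicate 1, where Rab38 and the hair shaft mean were highest, the Rab38 difference by age was -1.43. Without replicate 2 it was -2.39. In sorted cells, fewer cells that express a gene and less RNA per cell cannot be told apart.

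Rab32, the close relative of Rab38 that shares its work at the melanosome, read 3.92, 4.37, 5.06 and 4.15 in P21_KO, 5.33 and 5.16 in P21_WT, and 6.41 and 6.74 in P4_WT. The groups did not overlap, and P21_KO replicate 3 lay just under the lower P21_WT array. Rab32 fell 4.59-fold in P21_KO relative to P4_WT (log2 -2.20 ± 0.29, limma adjusted p = 0.00404). This call held in every alternative except the one without P4_WT replicate 2 and P21_KO replicate 4 together (limma adjusted p = 0.0635). The difference between P21_WT and P4_WT was -1.33 ± 0.34 (limma adjusted p = 0.118), and it passed without P21_KO replicate 3 (limma adjusted p = 0.0451). Between P21_KO and P21_WT it was -0.87 ± 0.29 (limma adjusted p = 0.656, unadjusted p = 0.0176). Macrophages also use RAB32 in vesicle transport. The difference by age was -1.16 without P4_WT replicate 2, the array with raised leukocyte markers, and -1.49 without P4_WT replicate 1. The part of such cells in the Rab32 values was not tested.

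Rab27a, the GTPase that docks the motor complex on the melanosome, varied most widely among the 10, over 4.30 log2 units. It read 6.23, 6.71, 4.21 and 6.82 in P21_KO, 6.82 and 6.65 in P21_WT, and 7.66 and 8.51 in P4_WT. Both P4_WT arrays were above all others, the 21-day groups overlapped, and P21_KO replicate 3 was far below every other array. The difference was -1.35 ± 0.78 between P21_WT and P4_WT (limma adjusted p = 0.554). It was -2.10 ± 0.67 between P21_KO and P4_WT (limma adjusted p = 0.11), and without P21_KO replicate 3 it was -1.50 and passed (limma adjusted p = 0.0334). Between P21_KO and P21_WT it was -0.74 ± 0.67 (limma adjusted p = 0.922), and -0.15 without P21_KO replicate 3. Leukocytes and mast cells also express Rab27a for granule release. The age difference was -0.93 without P4_WT replicate 2, the array with raised markers of those cells, and -1.77 without P4_WT replicate 1. The part of such cells in the Rab27a values was not tested.

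Mlph, the linker between Rab27a and the motor, read 5.91, 5.89, 5.25 and 4.13 in P21_KO, 6.10 and 5.18 in P21_WT, and 6.65 and 6.54 in P4_WT. Both P4_WT arrays were above all others, and P21_KO and P21_WT overlapped. The difference was -0.96 ± 0.57 between P21_WT and P4_WT (limma adjusted p = 0.575), and -0.50 without P21_WT replicate 2. It was -1.30 ± 0.49 between P21_KO and P4_WT (limma adjusted p = 0.177). P21_KO and P21_WT differed by -0.34 ± 0.49, but by 0.0449 without P21_KO replicate 4, the lowest array, and by 0.11 without P21_WT replicate 1.

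Myo5a, the motor itself, read 7.59, 7.86, 7.40 and 6.22 in P21_KO, 8.00 and 8.34 in P21_WT, and 8.47 and 8.63 in P4_WT. The groups did not overlap, but the 2 wild-type groups lay close together. Their difference was -0.38 ± 0.47 (limma adjusted p = 0.848), with a 95% interval of -1.45 to 0.69, and was -0.21 without P21_WT replicate 1. P21_KO and P21_WT differed by -0.91 ± 0.41 (limma adjusted p = 0.781), and P21_KO and P4_WT by -1.29 ± 0.41 (limma adjusted p = 0.105). Without P21_KO replicate 4, the lowest array, the difference between P21_KO and P21_WT was -0.56, and that between P21_KO and P4_WT was -0.94 and passed (limma adjusted p = 0.0342).

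Mreg encodes melanoregulin, the dilute suppressor, which acts in melanosome positioning. It read 3.58, 3.68, 3.63 and 4.48 in P21_KO, 3.58 and 5.20 in P21_WT, and 5.86 and 5.90 in P4_WT. The P21_WT arrays lay far apart, 1 beside the lowest P21_KO arrays and 1 nearer to P4_WT. Mreg fell 4.09-fold in P21_KO relative to P4_WT (log2 -2.03 ± 0.43, limma adjusted p = 0.0251). That call was lost without any 1 of P21_KO replicates 1, 2 and 3 or either P4_WT array (limma adjusted p 0.0564 to 0.123), while the difference stayed between -2.05 and -1.95. Between P21_WT and P4_WT the difference was -1.49 ± 0.49 (limma adjusted p = 0.232), but -0.68 without P21_WT replicate 1 and -2.29 without P21_WT replicate 2. Between P21_KO and P21_WT it was -0.55 ± 0.43, but -1.35 without P21_WT replicate 1 and 0.26 without P21_WT replicate 2. Several 21-day values were close to the median gene of an array, where RMA compresses differences.

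**Figure D2:**
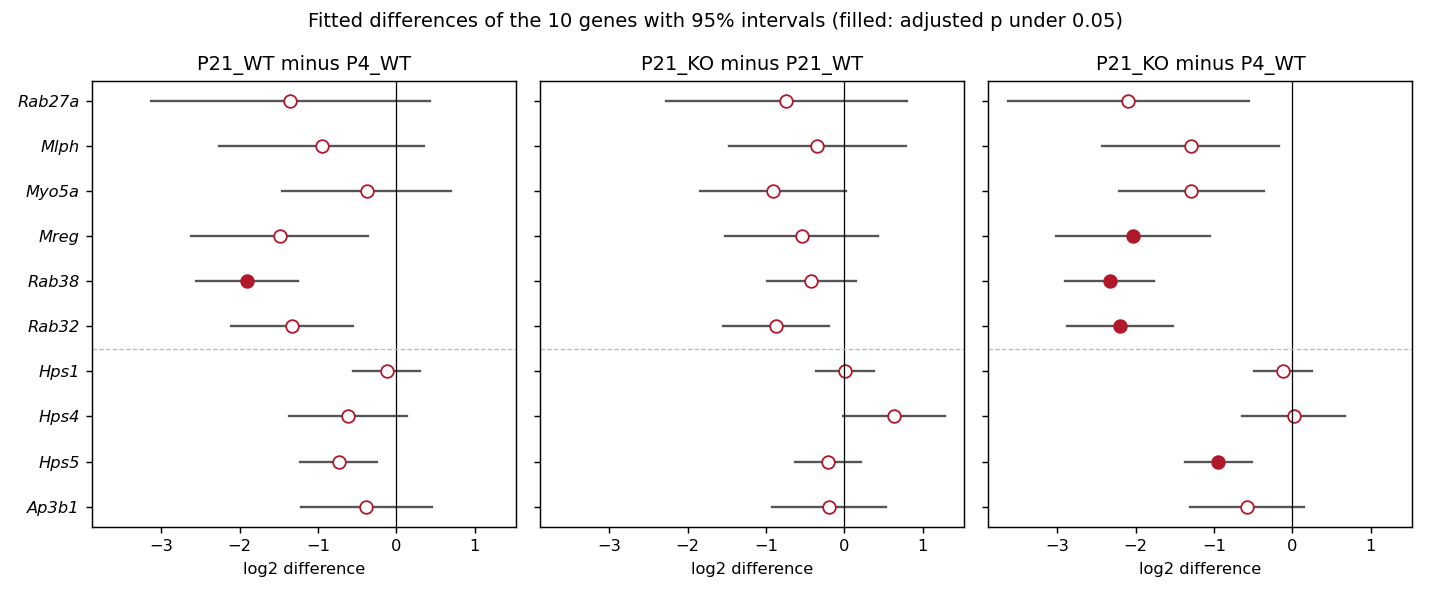
Fitted log2 difference (x axis) of each gene (y axis, transport genes above the dashed line and biogenesis genes below it) in the 3 comparisons, with lines for 95% intervals and filled points for an adjusted p under 0.05. Rab38 is filled in the age comparison at -1.91, and Mreg, Rab38, Rab32 and Hps5 are filled between P21_KO and P4_WT.

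Of the 4 biogenesis genes, Hps5 was the 1 that was called. Hps5, a subunit of BLOC-2, read 4.48, 4.73, 4.42 and 4.08 in P21_KO, 4.62 and 4.66 in P21_WT, and 5.39 and 5.35 in P4_WT. Both P4_WT arrays were above all others, and P21_KO and P21_WT overlapped. Hps5 fell 1.92-fold in P21_KO relative to P4_WT (log2 -0.94 ± 0.19, limma adjusted p = 0.0195), a call that was lost without P4_WT replicate 1 (0.103) or replicate 2 (0.0904). Between P21_WT and P4_WT the difference was -0.74 ± 0.21 (limma adjusted p = 0.171), and between P21_KO and P21_WT it was -0.21 ± 0.19, with a 95% interval of -0.63 to 0.22, and -0.0931 without P21_KO replicate 4.

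The subunits of BLOC-3, Hps1 and Hps4, were not called in any comparison. Hps1 read 4.42, 4.18, 4.14 and 4.02 in P21_KO, 4.15 and 4.22 in P21_WT, and 4.19 and 4.43 in P4_WT, and the groups overlapped throughout. Its 95% intervals were -0.55 to 0.30 between P21_WT and P4_WT and -0.36 to 0.38 between P21_KO and P21_WT. The second Hps1 row, at 3.14 to 3.57 over all arrays, gave the age difference the opposite sign when both rows were averaged (0.0798). Hps4 read 4.89, 5.70, 5.43 and 6.00 in P21_KO, 4.71 and 5.03 in P21_WT, and 5.49 and 5.49 in P4_WT. The difference was 0.63 ± 0.28 between P21_KO and P21_WT (limma adjusted p = 0.782) and -0.62 ± 0.33 between P21_WT and P4_WT (limma adjusted p = 0.512). Hps4 was the member with the highest genotype difference, and P21_KO and P4_WT means differed by 0.01 ± 0.28.

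Ap3b1, the beta subunit of AP-3, read 6.96, 7.05, 6.62 and 6.06 in P21_KO, 6.49 and 7.27 in P21_WT, and 7.40 and 7.12 in P4_WT. The P21_WT arrays spanned most of the range of the other groups. The differences were -0.38 ± 0.37 between P21_WT and P4_WT (limma adjusted p = 0.781), -0.20 ± 0.32 between P21_KO and P21_WT (limma adjusted p = 0.966) and -0.58 ± 0.32 between P21_KO and P4_WT (limma adjusted p = 0.361). The age value was 0.0079 without P21_WT replicate 1, -0.77 without P21_WT replicate 2 and -0.24 without P4_WT replicate 1. Without P21_KO replicate 4 the value between P21_KO and P21_WT was 0.0017 and that between P21_KO and P4_WT was -0.38.

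The 10 genes varied unequally among the P21_KO arrays. Their mean was 5.40, 5.62, 5.20 and 5.20 in P21_KO, 5.61 and 5.81 in P21_WT, and 6.63 and 6.65 in P4_WT, so P4_WT did not overlap the others. The melanocyte lineage markers had means of 8.53, 8.06, 7.54 and 6.99 in P21_KO, 9.04 and 8.81 in P21_WT, and 9.74 and 9.70 in P4_WT. Of these 9 markers, 8 were lower in P21_WT than in P4_WT (median -0.92), against 49.8% of all genes, with 0 called. In P21_KO relative to P21_WT 8 were lower (median -1.07), against 48.6% of all genes, with 0 called. Between P21_KO and P4_WT 8 were lower (median -1.71). There 5 were called lower and 1 higher, against 4.68% and 3.05% of all genes. Sox10 was the 1 marker that read higher in each comparison. P21_KO replicate 4 was lowest of all arrays in the mean of the lineage markers and in Mlph, Myo5a, Hps1, Hps5 and Ap3b1, and highest of its group in Rab27a, Mreg and Hps4. P21_KO replicate 3 was lowest in Rab27a and Rab38 and highest of its group in Rab32.

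Other marker lists also separated the ages. The mean of 7 cell cycle genes was 3.65 and 3.98 in P21_WT, and 6.43 and 6.84 in P4_WT, with 6 of the 7 called lower, against 0.852% of all genes. The mean of 4 Schwann and glial genes was 8.39 and 8.49 in P21_WT, and 7.21 and 6.96 in P4_WT, with 3 of the 4 called higher, against 0.757% of all genes. The mean of 8 stress genes was 9.34 and 9.02 in P21_WT, and 7.36 and 7.90 in P4_WT, with 6 of the 8 called higher. The mean of the keratinocyte genes was 8.40 and 8.12 in P21_WT, and 7.80 and 6.78 in P4_WT. Of these 6 genes 5 were higher without overlap and 0 called, where 4756 of all 22180 genes were higher without overlap. The endothelial genes were lower in 6 of 6 (median -1.23) with 0 called, where 49.8% of all genes were lower. Their mean was 3.72 and 3.65 in P21_WT, and 3.83 and 6.11 in P4_WT, so P4_WT replicate 1 lay near P21_WT. The hair shaft genes were lower without overlap in 6 of 6 (median -4.00), against 22.1% of all genes. Of them 3 were called lower, against 0.852% of all genes. The part of any of these lists in the members' values was not tested.

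**Figure D3:**
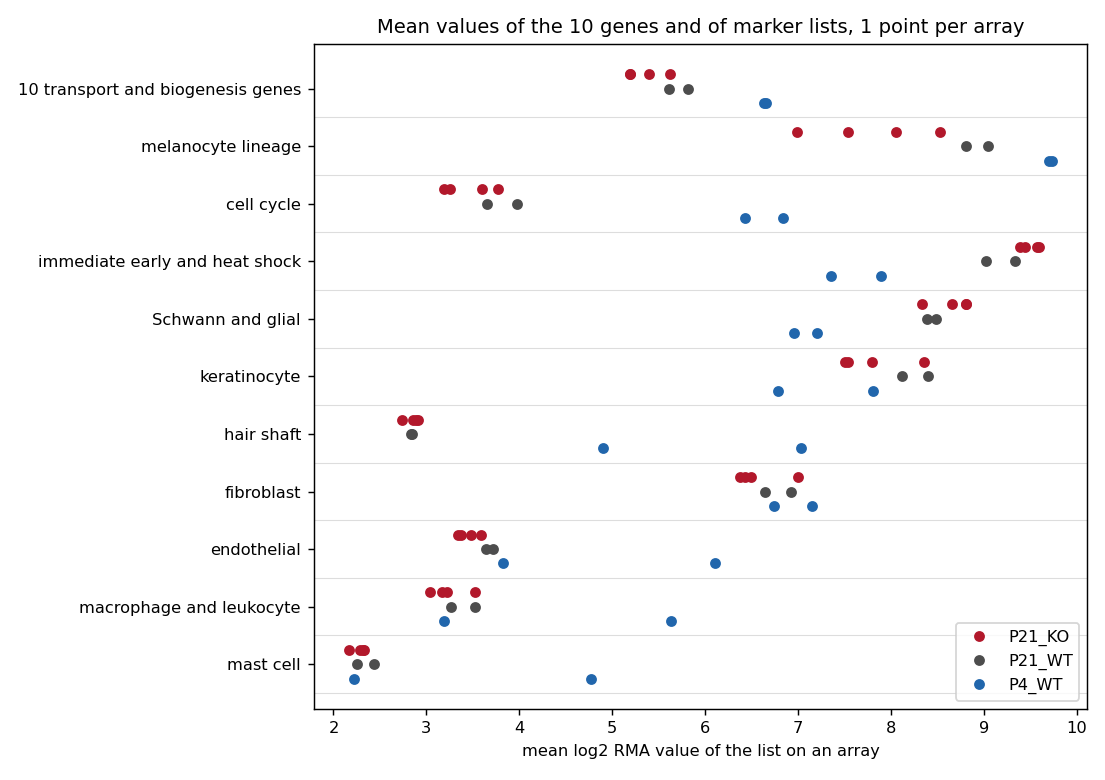
Mean log2 RMA value (x axis) of the 10 genes and of each marker list (y axis), with 1 point per array coloured by group. The 10 genes and the lineage markers are highest on both P4_WT arrays, and 1 P4_WT array stands apart at 5.63 for macrophage and leukocyte markers. Values of different lists rest on different probes and are not compared with each other.

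Other genes of the same machinery were read from 8 lists with 50 genes, all measured. In P21_WT relative to P4_WT 37 of the 50 read lower, with a median of -0.22, and 1 was called, Hps3, beside 1.61% of all genes called and 49.8% lower. Hps3, a further BLOC-2 subunit and the gene of the mouse cocoa mutant, read 4.93, 5.15, 4.71 and 5.04 in P21_KO, 5.23 and 4.78 in P21_WT, and 6.15 and 6.08 in P4_WT. It fell 2.16-fold in P21_WT (log2 -1.11 ± 0.21, limma adjusted p = 0.048), but that call held in only 5 of 20 alternative fits, and 2.24-fold in P21_KO relative to P4_WT (log2 -1.16 ± 0.19, limma adjusted p = 0.00812), a call lost without P4_WT replicate 1 (0.0551). P21_KO and P21_WT differed by -0.05 ± 0.19. The remaining BLOC-2 subunit, Hps6, was at -0.62 ± 0.25 by age (limma adjusted p = 0.349) and read at or below about the median gene of an array in every group.

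The cargo adaptor AP-1, which sorts melanosome cargo together with the kinesin Kif13a, read lower by age in all 6 listed genes (median -0.55), none called. Its small subunits had the smallest p of that list, with Ap1s1 at -1.05 ± 0.27 (limma adjusted p = 0.126) and Ap1s2 at -0.81 ± 0.22 (limma adjusted p = 0.138). Both fell in P21_KO relative to P4_WT, Ap1s2 by 1.44 on the log2 scale (limma adjusted p = 0.0037) and Ap1s1 by 1.02 (limma adjusted p = 0.037). Ap1s1 lost that call without either P4_WT array and without P21_KO replicate 2 or 3 (limma adjusted p up to 0.204). All 4 other AP-3 subunits (median -0.29) and 5 of 6 HOPS subunits (median -0.21), which tether membranes before fusion, were lower by age with 0 called. BLOC-1 was split, with 4 of 8 subunits lower and a median of -0.01. Of 8 SNAREs and other pigment organelle genes 7 were lower, and Pi4k2a, a lipid kinase gene, was at 1.08 ± 0.44 (limma adjusted p = 0.345), and at 0.67 without P21_WT replicate 1.

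Among Rab effectors and prenylation genes, 5 of 10 were lower by age, with a median of 0.01. Sytl2, which encodes a Rab27 effector that tethers melanosomes to the plasma membrane, had the lowest difference of the 50 genes between P21_KO and P21_WT. In that comparison 4 of the 50 had an unadjusted p under 0.05, against 6.52% of all genes. Without overlap, 2 of the 50 were lower there, against 7.64% of all genes. Sytl2 read 6.23, 5.10, 4.92 and 3.91 in P21_KO, 6.92 and 7.32 in P21_WT, and 7.28 and 7.72 in P4_WT, and every P21_KO array was below every wild-type array. Its difference was -2.09 ± 0.53 between P21_KO and P21_WT (unadjusted p = 0.00382, limma adjusted p = 0.565) and -0.38 ± 0.61 between P21_WT and P4_WT, the second ranging from -0.60 to -0.15 with 1 array left out. Sytl2 fell 5.50-fold in P21_KO relative to P4_WT (log2 -2.46 ± 0.53, limma adjusted p = 0.0268), a call lost without either P4_WT array (0.0927 and 0.152) and without P21_KO replicate 2 (0.057) or 3 (0.0667). P21_KO replicate 4 was the lowest array for Sytl2, as for the lineage markers.

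Of 6 other transport Rabs, 4 were lower by age with a median of -0.16. Among them Rab8a was at -0.67 ± 0.26 by age (limma adjusted p = 0.31). The rows of Rab8a disagreed, and their mean gave -1.18 by age (limma adjusted p = 0.0331). Between P21_KO and P21_WT Rab8a was at -0.54, and at 0.19 with its rows averaged. Rab8a, a GTPase of outward vesicle transport, fell by 1.22 on the log2 scale in P21_KO relative to P4_WT (limma adjusted p = 0.0144), and the call was lost without P4_WT replicate 1 (0.105). Rab11b, a GTPase of recycling endosomes, was the 1 gene of the 50 called higher there, where 3.05% of all genes were (0.62 ± 0.14, limma adjusted p = 0.0389), and it lost the call in all 6 fits without a P21_KO or P4_WT array. Over the 50 genes 5 were called lower and 1 higher in P21_KO relative to P4_WT (median -0.14), against 4.68% and 3.05% of all genes. In P21_KO relative to P21_WT 0 of the 50 were called, and 0% of all genes. There the median was -0.01, with 26 lower and 24 higher, against 48.6% of all genes lower.

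**Figure D4:**
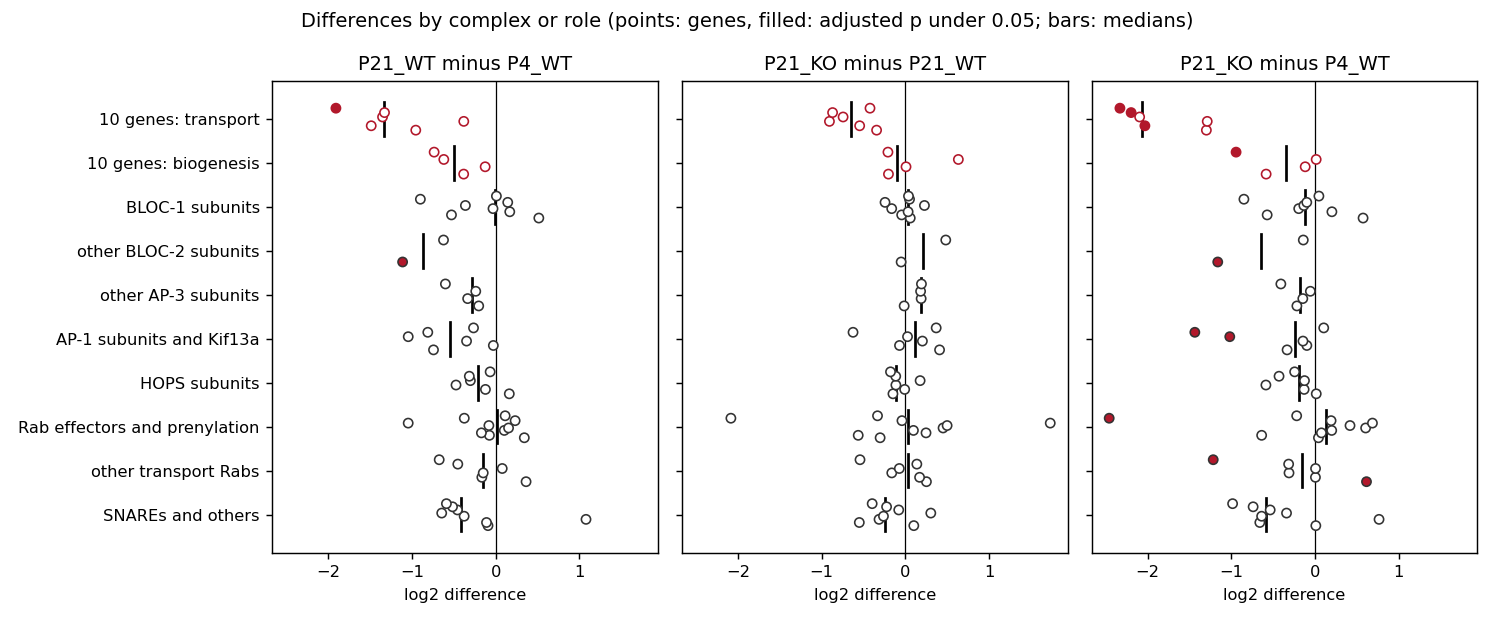
Fitted log2 differences (x axis) of single genes (points) by complex or role (y axis) in the 3 comparisons, with bars for medians and filled points for an adjusted p under 0.05. The transport genes have medians of -1.34, -0.64 and -2.06, and the other lists lie nearer to 0.

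Genes with the most similar course over the 8 arrays were sought for the members called in any comparison, by the root mean square difference of log2 values after each gene was centred on its mean. For Rab38 they were Tpx2 (0.154), Ralgps2 (0.178) and Hmmr (0.199). For Rab32 they were Cxcl12 (0.231), Bub1 (0.283) and Zfp984 (0.308). For Mreg they were Plk4 (0.30), Frem2 (0.339) and H1f10 (0.357), and for Hps5 they were Neil3 (0.0921), Bzw1 (0.0965) and Znrf1 (0.104). In P21_WT relative to P4_WT these 12 genes differed by -1.87 for Tpx2 at the low end and -0.58 for Znrf1 at the high end. All arrays shared 1 normalization, and the ages differed in many genes, so likeness over these arrays is a description only.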

How the data were processed

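The authors deposited log2 values. The submitters' processing notes name RMA and Affymetrix Expression Console as tools, with no version given in the sources used here. RMA subtracts background, gives all arrays one distribution and summarises probes, and it compresses differences near the floor. Values ran from 0.913 to 12.2 and were used as deposited. Of 41345 rows, 23521 had 1 gene symbol in the platform annotation, 1814 had several and 16010 were unnamed here. The row with the highest mean was kept for the 1082 symbols with several rows, which left 22180 genes.

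With limma 3.58.1 in R 4.3.3, 1 mean per group was fitted over the 8 arrays, with 5 residual degrees of freedom. P-values are two-sided and adjusted by Benjamini-Hochberg over all genes, and the fit was tested on simulated data. The number of arrays limits the precision. The p-values describe the spread between arrays, part of which may be technical. All 10 members are named. From the wider lists the genes called in any comparison are named, and those with the smallest p by age up to 6. Alternatives left out each array, changed the arrays in the fit, the normalization, the prior, weights, the row chosen per gene, the filter on dim genes and the threshold, or added blocks. The members and lists were chosen with earlier results of these data known.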

Additional observations from a re-analysis of the deposited data

Results flagged for a closer look

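Mreg in P21_KO replicate 4 read 4.48, apart from 3.58, 3.68 and 3.63 on the other P21_KO arrays. The gap to the nearest array was 0.886 of the range of the group, above the 95% critical value of Dixon's test for 4 values. The 10 genes were tested this way in P21_KO, and chance flags about 1 in 20 such groups. Without that array Mreg differed from P4_WT by -2.25.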

How the results depend on the processing

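The P21_KO against P21_WT call count for the 10 genes was 0 in every alternative. Called members by age were 0 with the wild-type arrays alone and 0 with the replicate block, and 0 to 2 with 1 array left out (0 without P21_WT replicate 1 or 2, and 2 without P21_KO replicate 3). Called members between P21_KO and P4_WT were 2 with the replicate block, 1 without P4_WT replicate 2 and P21_KO replicate 4 together (an alternative chosen after seeing the data), and 2 to 5 with 1 array left out (2 without either P4_WT array). Over all genes the age count of 357 became 49 with the wild-type arrays alone, 45 with the replicate block, 674 at an adjusted p under 0.10 and 119 to 338 with 1 array left out (121 without P21_WT replicate 1, 119 without the second P21_WT array, and 233 when P21_KO replicate 3 was left out). The genotype count of 0 ranged from 0 to 15 (15 without P21_WT replicate 2, 2 without P21_WT replicate 1, and 1 without P21_KO replicate 1). The count of 1715 between P21_KO and P4_WT became 463 with the block, 825 without the 2 arrays named above and 921 to 1529 with 1 left out (990 and 921 without P4_WT replicates 1 and 2). Fits that leave out arrays hold fewer samples. The replicate block is also such a fit, without P21_KO replicates 3 and 4 and with a further term for the replicate number. How far each of these lowered its counts was not tested. The differences between replicates 1 and 2 of each group were correlated over all genes. They gave -0.03 (P21_KO and P21_WT), -0.01 (P21_KO and P4_WT) and -0.01 (P21_WT and P4_WT). With 1 such difference per group, and without P21_KO replicates 3 and 4, this cannot show whether same-numbered samples were paired.

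Of 600 member values over 20 alternatives each, 560 kept direction and side of the threshold, 16 lost a call, 3 gained one and 21 changed sign. The cause was not tested. Most of the 600 were never called, and only results called in the main fit could lose a call. Of 20 alternatives each, the call was lost in 4 for Rab38 by age. Between P21_KO and P4_WT it was lost in 7 for Mreg, 0 for Rab38, 1 for Rab32 and 4 for Hps5. By age, Hps1 was 0.0798 with its rows averaged, and Ap3b1 ranged from -0.77 to 0.0079 with 1 array left out. Between P21_KO and P21_WT, the replicate block gave 0.26 for Mlph, 0.13 for Ap3b1, 0.0321 for Hps3 and 0.18 for Pi4k2a. Averaged rows gave -0.10 for Hps1 and 0.19 for Rab8a, array weights gave -0.0087 for Ap1s1, and without the 2 arrays together the values were 0.0449 for Mlph, 0.0017 for Ap3b1 and -0.0701 for Ap1s1. With 1 array left out the ranges were -0.80 to 0.11 for Mlph, -1.35 to 0.26 for Mreg, -0.0686 to 0.0644 for Hps1, -0.59 to 0.19 for Ap3b1, -0.28 to 0.18 for Hps3, -0.19 to 0.24 for Ap1s1 and -0.73 to 0.10 for Pi4k2a. Between P21_KO and P4_WT, Hps4 was -0.058 with array weights, -0.20 with the block, -0.15 without the 2 arrays together and -0.15 to 0.22 with 1 left out. There Hps1 was 0.0581 without the 2 arrays together and -0.24 to 0.0019 with 1 left out, and Hps6 was -0.29 to 0.0063.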
